A study of Mus musculus with 8 samples.

Results

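Total RNA of mouse J1 embryonic stem cells was sequenced after shRNA knockdown of eIF4A2 and in cells carrying control shRNAs. These 4 libraries, 2 of the knockdown and 2 of the control, make up 4 of the 8 libraries of the study, and the remaining 4 hold ribosome footprints of the same 2 conditions. The members are the library columns of the deposited total RNA table and all 13436 genes listed in it. J1 cells come from a 129S4/SvJae mouse embryo and were kept here without feeder cells, on gelatin, with serum and leukemia inhibitory factor. Both groups were infected on day 0, the control with shNT or shGFP and the knockdown with sheIF4A2-2 or sheIF4A2-3. All cells then received 1 µg/mL puromycin for 3 days, were harvested on day 4.5 and were given cycloheximide (0.1 mg/mL, 1 min) ahead of lysis, so the control differs from untreated cells in these agents too. The labels name 2 biological replicates but not which shRNA each received. A difference between the replicates of a group may thus be a difference between shRNAs or between cultures, which cannot be told apart.

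eIF4A2 is a DEAD-box RNA helicase and a close relative of eIF4A1, the helicase of the cap-binding complex that unwinds mRNA leaders during translation initiation. eIF4A2 has also been tied to microRNA-directed silencing and to the CCR4-NOT deadenylase complex. Stem cells in serum and leukemia inhibitory factor move between a naive state, like the early epiblast, and states nearer to the formative and primed epiblast of the embryo around implantation. Total RNA gives the amount of each transcript and says nothing of how often it is translated.

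The knockdown libraries held 12228408 and 12840349 reads and the control libraries 8564582 and 9489221. Values are reads scaled to a common library size (CPM), and 1 read was worth 0.0751 to 0.114 CPM. The knockdown libraries were much closer to each other than the controls were. Over the 9013 genes with a mean of at least 10 CPM, the median absolute log2 difference was 0.08 between the knockdown libraries and 0.29 between the controls. At least 2-fold differences were found for 1 gene between the knockdowns and 294 genes between the controls. The mean of the knockdowns lay nearer to control 1 (median absolute difference 0.18) than to control 2 (0.28). For 3835 genes (28.5%) both knockdown values lay between the 2 controls. All 10 stem cell markers were measured and summed to between 5604 and 7500 CPM per library. Of 10 defining fibroblast markers 5 were measured, summing to between 14.3 and 24.9 CPM, with control 1 highest and control 2 lowest, and the others, Col3a1, Dcn, Lum, Postn and Prrx1, were not in the table. Whether fibroblast-like cells had a part in any difference was not tested.

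Eif4a2 itself was only moderately lower. Its total RNA was 583 and 617 CPM in the knockdown libraries and 739 and 969 CPM in the controls, so the groups did not overlap but control 1 lay nearer to the knockdowns than to control 2. The means were 600.0 ± 24.6 and 854 ± 163 CPM (SD, n = 2 each), 1.42-fold lower in the knockdown. The log2 difference of -0.50 ± 0.18 (SE) did not pass limma's test (adjusted p = 0.290). It was -0.30 without control 2 and -0.69 without control 1. Eif4a1, the major paralog, was at 2588 and 2556 CPM against 2738 and 3604 (log2 difference -0.29 ± 0.20, limma adjusted p = 0.552). Its control 1 value was close to the knockdown values and control 2 stood above the rest.

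Over all genes limma called 0 of 13436 higher (0%) and 0 lower (0%) at an adjusted p of 0.05, with 2002 genes at an unadjusted p below 0.05. The smallest adjusted p was 0.0819, shared within 0.001 by 37 genes. On whole reads read back from the values, limma-voom and the quasi-likelihood test of edgeR called 0 too, the likelihood ratio test of edgeR called 824, and DESeq2 called 104 of 12654 genes higher (0.822%) and 168 lower (1.33%). An exact test of 2 libraries against 2 cannot go below p = 0.333. The limma count was 6191 when control 1 was left out and to 3411 when control 2 was. It was 62 with knockdown 1 dropped and 34 with knockdown 2 dropped. In each such fit the lone library is assumed to vary like the other group.

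Because a mean over these controls can be set by 1 library, genes are described here by the gap between the nearest libraries of the groups. A gene is called separated, with no test, where the lowest library of 1 group was at least 1.5 times the highest of the other on CPM + 1. The groups did not overlap for 3134 genes higher in the knockdown (23.3%) and 3306 lower (24.6%). Separation was met by 238 genes higher (1.77%) and 311 lower (2.31%), and when each library was scaled to its column total instead, by 287 and 245. For 531 of these 549 genes the gap was wider than the difference between the controls. They were picked for a wide gap, so this count follows largely from the choice. At the edge, Bmp1 (gap 1.5020) was just inside and Ccdc36 (1.4997) just outside among genes higher, with Heca (1.5010) and Sod2 (1.4984) in these places among genes lower. Without knockdown 1 the counts were 391 higher and 513 lower, without control 1 they were 1293 and 843, and without control 2 they were 411 and 717, since a gap over fewer libraries is easier to reach.

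**Figure D1:**
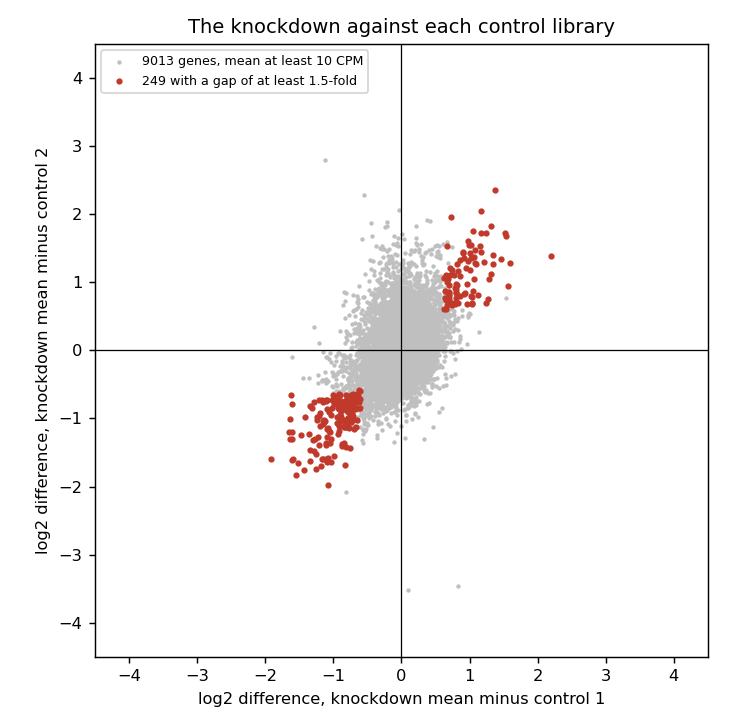
Log2 difference (CPM + 1) of the mean of the 2 knockdown libraries from control 1 (x axis) and from control 2 (y axis), 1 point per gene, for 9013 genes with a mean of at least 10 CPM. The 249 red points are separated genes and lie in the upper right and lower left corners. The cloud is taller than it is wide, with x between -1.92 and 2.20 and y between -3.51 and 2.79.

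The 15 widest gaps upward, of 2.44-fold to 4.38-fold, included a myosin light chain, a corepressor, a cyclin and several receptors. Myl9, a regulatory light chain of myosin in contractile cells, was at 8.37 and 7.89 CPM in the knockdowns and 1.03 and 0.998 CPM in the controls. It was thus 8.02-fold higher on the means, with a log2 difference of 2.18 ± 0.19 (limma adjusted p = 0.0819). The neighbours within each group were nearly equal and far from the other group. Skor1, a corepressor of the SKI family, had 7.10 and 5.34 CPM against 0.571 and 0.665, which in the controls is 5 and 6 reads. Ccno, a cyclin of multiciliated cells, had 9.94 and 11.4 CPM against 1.26 and 1.89. Car4, a membrane carbonic anhydrase, had 11.3 and 13.98 CPM against 2.74 and 0.998. In none of these did a control come near a knockdown library, which the choice by widest gap ensures.

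The receptors Fzd2 (24.4 and 20.0 CPM against 6.97 and 6.21) and Fgfr2 (18.5 and 21.3 against 3.54 and 6.99) and the ligand Efnb2 (32.7 and 33.2 against 11.3 and 12.4) were in the same set. Fzd2 binds Wnt proteins, Fgfr2 binds fibroblast growth factors and Efnb2 is a membrane-bound partner of Eph receptors. Nes, an intermediate filament protein of neural progenitors, was at 34.3 and 32.0 CPM against 12.5 and 11.9. Prtg, a receptor-like protein of the early embryo, was at 35.7 and 34.6 against 11.7 and 9.98. Gadd45g, a growth arrest and DNA damage gene, was at 15.2 and 13.7 against 3.20 and 4.55. The remaining 5 were Ap3b2, Mfap3l, Lef1, Tdrd1 and Slc5a5. All 15 were called by DESeq2 and none by limma, where the largest adjusted p among them was 0.114.

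The 15 widest gaps downward, of 2.38-fold to 3.71-fold, included a nuclear receptor, an endocytic receptor, the protein tau and a laminin chain. Hnf4a, a nuclear receptor of the visceral endoderm and liver, was at 0.868 and 0.902 CPM in the knockdowns and 6.05 and 6.10 CPM in the controls (log2 difference -1.91 ± 0.19, limma adjusted p = 0.0819). These are 11 and 12 reads against 53 and 55. Ly75, an endocytic receptor, had 45.4 and 43.0 CPM against 131 and 159, a mean 3.29-fold lower. In both genes the pairs did not approach each other, which again follows from the choice by widest gap.

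Mapt, the microtubule protein tau, was at 8.76 and 9.17 CPM against 29.2 and 29.3, and Dkk3, a secreted protein of the Dickkopf family, at 2.37 and 2.33 against 10.1 and 8.87. Emp1, an epithelial membrane protein, had 13.4 and 10.7 CPM against 38.0 and 38.3. Sept1, a septin, had 31.4 and 31.7 against 82.0 and 88.7. Lgals3, the galactose-binding lectin galectin-3, had 11.5 and 11.4 against 28.8 and 34.6. Lower too were Arl14epl, Tmem132d, Tgm3, Lrrc31 and Dpys, and the noncoding RNA Rnu3a, the laminin Lama1 and the dynein Dnah8, which are described with their groups. DESeq2 called all 15 and limma none, with a largest adjusted p of 0.0992.

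**Figure D2:**
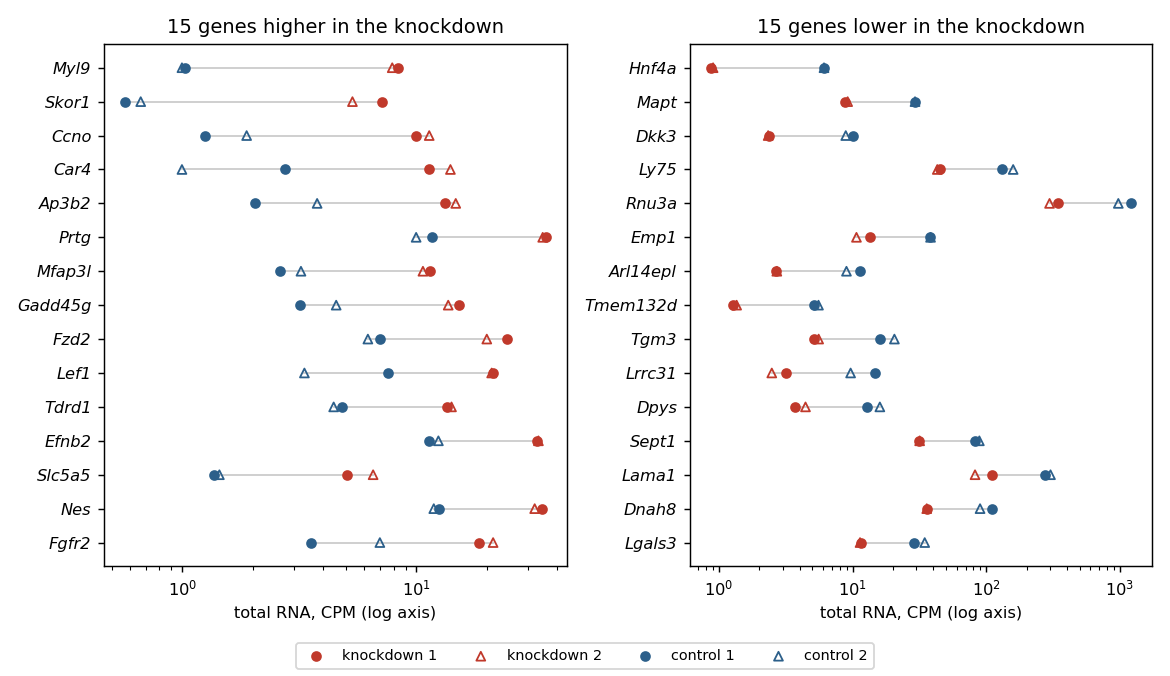
Total RNA in CPM on a log axis for the 15 genes with the widest gap higher in the knockdown (left) and the 15 lower (right), with 1 marker per library (red for knockdown, blue for control, filled circles for replicate 1 and open triangles for replicate 2). In every gene drawn both red markers lie on 1 side of both blue markers, as for Myl9 at 8.37 and 7.89 against 1.03 and 0.998 CPM. The choice by gap requires this.

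Transcripts of the naive state were lower and those of the formative and primed epiblast higher, while the factors shared by both states were mixed. Of 24 naive genes 19 had negative log2 differences, with a median of -0.48 beside 0.00 over all genes tested. Of the 24, 4 were separated lower and 0 higher, beside 2.31% and 1.77% of all genes. Of 19 measured genes of 22 in the formative and primed list, 16 were positive with a median of 0.75, and 9 were separated higher and 0 lower. Of the 16 shared genes 10 were positive, with a median of 0.10 and 1 gene separated. limma called 0 genes in each list, and DESeq2 called 6 naive genes lower, 8 formative and primed genes higher and 1 shared gene lower. The DESeq2 shares over all genes were 0.822% higher and 1.33% lower. The naive median was -0.63 against control 1 alone and -0.36 against control 2 alone, and the formative and primed median 0.56 and 0.84.

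Among naive genes Zfp42 (Rex1), a zinc finger protein used as a marker of this state, was at 796 and 748 CPM against 1390 and 1983. Tcl1, a coactivator of Akt, was at 36.2 and 33.1 CPM against 65.3 and 68.0. Nr0b1 (Dax1), an orphan nuclear receptor, had 76.2 and 67.2 against 131 and 190. Manba, a lysosomal mannosidase, was the other separated gene, at 58.5 and 57.9 CPM against 122 and 151. Klf4, Tfcp2l1, Tbx3, Esrrb and Klf2, transcription factors that hold this state, had log2 differences of -0.73, -0.77, -0.79, -0.53 and -0.54 without being separated. Against control 1 alone these were -0.97, -1.09, -1.22, -0.87 and -0.68. Against control 2 alone they were smaller, at -0.49, -0.45, -0.36, -0.185 and -0.39. Dppa3, a gene of the germ line and early embryo, went the other way (0.83), as did Nr5a2 (0.31), Tet1 (0.21), Gbx2 (0.20) and Fbxo15 (0.09). Nanog was at 175 and 195 CPM against 247 and 249 (log2 difference -0.42 ± 0.13, limma adjusted p = 0.239). Of the shared genes Pou5f1 (Oct4) was at 1312 and 1280 against 1498 and 1639, Sox2 at 371 and 343 against 435 and 622, and Foxd3, a forkhead factor, at 23.9 and 20.2 against 37.7 and 61.1. For all 3 control 1 was the nearer control. Lin28a, an RNA-binding protein of stem cells, was instead higher at 594 and 618 CPM against 454 and 395.

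Of the formative genes Fgf5, a growth factor of the epiblast, was at 3.79 and 3.68 CPM against 0.685 and 0.222, or 48 and 49 reads against 6 and 2. Otx2, a homeobox factor, had 58.9 and 55.6 CPM against 27.8 and 21.9. Sall2, a zinc finger factor, had 30.2 and 30.0 against 13.9 and 8.21. In these 3 genes control 2 was the lower control. The de novo DNA methyltransferases Dnmt3a (482 and 497 CPM against 248 and 196) and Dnmt3b (437 and 452 against 232 and 247) had the highest CPM of the separated genes on this list. Enpp3, a surface nucleotidase, had 68.3 and 65.2 against 21.8 and 34.3 and Igfbp3, an IGF-binding protein, 17.3 and 19.5 against 10.1 and 9.32. Other members barely differed, with Sox3 at 0.02, Zic2 at 0.06, Nodal at 0.07, Tcf15 at 0.02 and Cdh2 at 0.00 on the log2 scale. The DNA methylation genes Zfp57 (264 and 279 against 428 and 406 CPM) and Tet2 (274 and 280 against 536 and 398) were lower in both knockdown libraries, whereas of 16 genes on that list as many were positive as negative.

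Most transcripts that mark 2-cell-like cells, a small fraction of stem cell cultures resembling the cleavage-stage embryo, were also higher, though their sum overlapped between the groups. The list summed to 297 and 354 CPM in the knockdowns and 235 and 352 CPM in the controls. Of 18 measured members of 39, 16 were positive with a median of 0.67, and 5 were separated higher, beside 1.77% of all genes. Zscan4d, a zinc finger gene of that stage, was at 15.0 and 27.3 CPM against 6.05 and 7.76. Here knockdown 2 stood well above knockdown 1, and the list's median difference between the knockdowns was -0.48 (knockdown 1 minus 2), against -0.01 over all genes. Usp17le, a deubiquitinase gene, had 6.63 and 10.7 CPM against 3.65 and 1.66. Other members barely differed or were lower, with Zfp352 at 0.04, Duxf3 at 0.21, B020004J07Rik at -0.08 and Eif1a at -0.19 on the log2 scale. Members of the Zscan4 and Usp17l families have near-identical copies, so how their reads were split is uncertain.

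**Figure D3:**
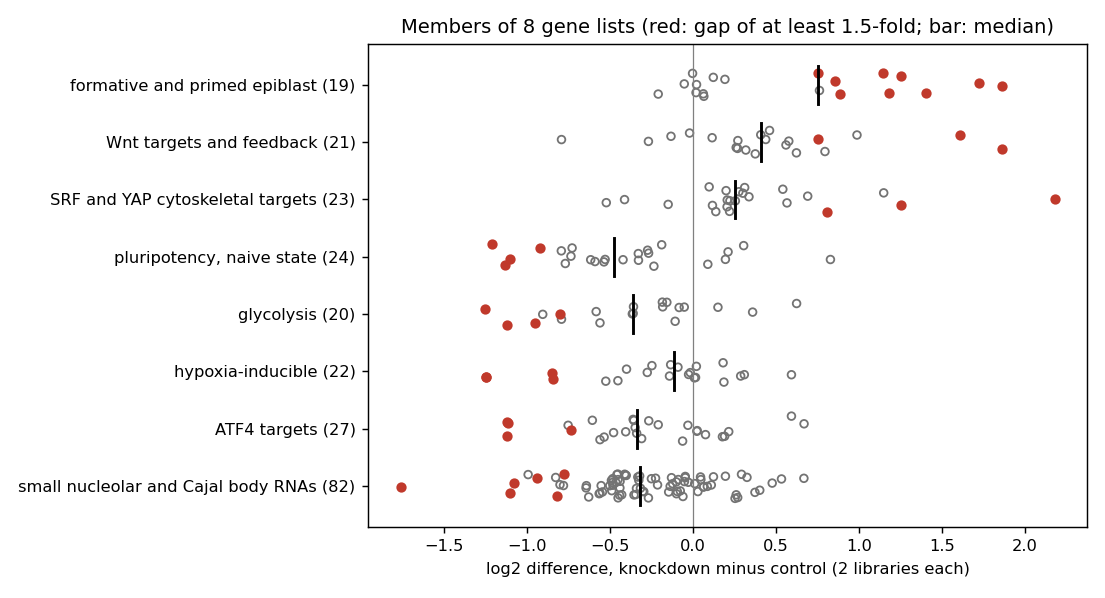
Log2 difference (CPM + 1) of the knockdown from the control, 2 libraries each, for every measured member of 8 gene lists, with member numbers in parentheses. Filled red points are separated genes, open points are not, and the bar is the list's median, which is 0.75 for the formative and primed list and -0.48 for the naive list.

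Wnt target and feedback genes, listed together with receptors and transcription factors of the pathway, were mostly higher. The targets respond to beta-catenin with its LEF and TCF partners. Of 21 measured members of 25, 17 were positive with a median of 0.41 (0.28 against control 1 and 0.49 against control 2). Of the 21, 3 were separated higher and 0 lower, beside 1.77% and 2.31% of all genes. Among receptors Fzd2, described above, and Fzd7 were separated, Fzd7 at 153 and 145 CPM against 95.5 and 81.0. Lef1, the transcription factor that binds beta-catenin, was at 21.3 and 21.0 CPM against 7.54 and 3.33. Its controls differed more than 2-fold but both stayed far below. Lef1 and Fzd7 are also on the formative and primed list, so they count among the separated genes of both lists. Axin2, the classical feedback inhibitor, was at 26.4 and 29.8 CPM against 18.5 and 13.3 and was not separated. Notum, an enzyme that inactivates Wnt proteins, went the other way with a log2 difference of -0.79, as did Fzd5 (-0.27), Cdx1 (-0.13) and Nkd2 (-0.02). Tcf7 was at -0.47 against control 1 and 1.01 against control 2.

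FGF-ERK feedback genes were positive in 15 of 21 cases, with a median of 0.38 (0.20 against control 1 and 0.39 against control 2). Of the 21, 1 was separated higher, beside 1.77% of all genes. It was Dusp5, a nuclear ERK phosphatase, at 11.9 and 10.9 CPM against 6.40 and 6.10. The feedback inhibitors Il17rd (94.2 and 88.7 CPM against 64.2 and 50.4) and Spred1 (128 and 143 against 101 and 88.5) were higher in both knockdown libraries. The ligand Fgf4 was lower in both, at 159 and 166 against 270 and 222. Other members barely differed or were lower, with Spry4 at 0.01, Etv5 at -0.03, Etv4 at -0.05, Spry1 at -0.20 and Egr1 at -0.72 on the log2 scale. LIF-STAT3 genes were positive in 11 of 17 cases with 0 separated. Nodal and BMP genes were positive in 10 of 18 cases, with 2 separated higher and 2 lower, beside 1.77% and 2.31% of all genes. The inhibitor Smad6 (7.66 and 8.27 CPM against 3.43 and 3.88) was separated higher. The ligands Bmp4 (17.0 and 17.9 against 28.3 and 32.1) and Inhbb (69.4 and 69.8 against 130 and 130) were separated lower.

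Cytoskeletal genes that serum response factor (SRF) and YAP are known to drive were higher. Of 23 measured members of 30, 20 were positive (median 0.26). Both knockdown libraries were above both controls for 16 of the 23, beside 23.3% of all genes, and 3 were separated higher, beside 1.77%, namely Myl9, Cnn2 and Tagln. Cnn2, an actin-binding calponin, was at 53.6 and 54.6 CPM against 22.7 and 21.5 (log2 difference 1.25 ± 0.14, limma adjusted p = 0.0819). Tagln, the actin-binding protein transgelin, was at 4.03 and 3.23 against 1.71 and 1.55. Lats2, a kinase that restrains YAP, was at 13.6 and 10.5 against 7.65 and 6.43. In all of these both knockdown libraries were above both controls. SRF binds the CArG box, 10 bases long, which has CC at one end, GG at the other and only A or T between. The box was found in the 250 bases before the start site of 4 of 21 matched list members (19%). The share was 1.28% of the 10211 matched genes of the table and 1.62% of all 27025 genes in RefSeq's promoter set for GRCm38.p6. The promoters of the 2 members with the widest gaps are shown because both hold 1, in capitals, starting 161 bases before the start site in Myl9 and 56 bases before it in Cnn2.
Myl9, chr2:156775214-156775463, strand +: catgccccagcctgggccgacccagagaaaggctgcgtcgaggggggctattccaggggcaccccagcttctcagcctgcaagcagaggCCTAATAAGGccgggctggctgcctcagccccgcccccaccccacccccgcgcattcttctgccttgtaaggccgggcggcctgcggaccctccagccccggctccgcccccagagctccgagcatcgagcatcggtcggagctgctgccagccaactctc
Cnn2, chr10:79988350-79988599, strand +: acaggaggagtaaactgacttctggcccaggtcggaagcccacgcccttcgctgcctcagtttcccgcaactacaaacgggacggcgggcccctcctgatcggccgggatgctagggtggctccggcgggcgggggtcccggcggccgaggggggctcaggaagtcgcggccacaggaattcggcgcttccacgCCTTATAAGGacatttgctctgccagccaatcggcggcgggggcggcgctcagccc
The match is of letters only, and binding by SRF was not measured. The list was drawn from known targets, so its share of boxes describes the list and says nothing of the knockdown. Separated and other members were not compared for the box.

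Surface and matrix genes went in both directions. Ephrins and Eph receptors were positive in 12 of 15 cases (median 0.30). Efnb2 and Epha1 (15.2 and 15.6 CPM against 8.22 and 6.32) were separated higher, beside 1.77% of all genes. Of 39 cadherins, claudins and integrins 3 were separated higher and 1 lower, beside 1.77% and 2.31% of all genes. All of the separated members were integrin chains. Itga3, a laminin receptor chain, was at 109 and 111 CPM against 69.1 and 54.2, and Itga9 was lower at 23.3 and 19.8 against 50.9 and 57.7. Itga1 (5.45 and 6.54 against 0.571 and 2.22) and Itgam (7.97 and 7.67 against 4.23 and 3.55) were higher.

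Basement membrane genes had 3 of 18 separated lower and 0 higher, beside 2.31% and 1.77% of all genes. The list median was 0.03 and became -0.13 against control 1 alone. Lama1, the laminin alpha chain of the embryonic basement membrane, was at 110 and 82.4 CPM against 274 and 302 (log2 difference -1.58 ± 0.18, limma adjusted p = 0.0819). Nid1, which links laminin to collagen, was at 51.5 and 56.8 against 146 and 108, and the collagen chain Col4a1 at 62.4 and 56.1 against 97.8 and 100.7. Agrn (0.51), Fras1 (0.60) and Lama5 (0.30) had positive log2 differences, so the list was split.

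Neural and axonemal genes were split as well. For comparison with the counts below, 1.77% of all genes were separated higher and 2.31% lower. Of 22 neural genes Nes and Prtg were separated higher and 4 lower, Mapt, the adhesion molecule Ncam1 (13.8 and 11.7 CPM against 36.9 and 31.4), the growth cone protein Gap43 (14.1 and 15.4 against 28.9 and 24.5) and the retinoid-binding Crabp1 (15.0 and 12.6 against 23.3 and 23.7). Of 29 axonemal and multiciliation genes Ccno was separated higher, and Dnah8 (36.0 and 35.8 against 111 and 89.8), Hydin (4.10 and 4.13 against 11.99 and 10.8) and Tekt1 (4.81 and 4.81 against 9.02 and 10.2) lower. Dnah8 is a dynein heavy chain, Hydin a protein of the central microtubule pair and Tekt1 a tektin of the microtubule wall. Of 11 measured mesoderm and endoderm genes Dab2, an endocytic adaptor, was separated higher (6.79 and 6.54 against 2.97 and 2.77), and Hnf4a and Cxcr4 lower.

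Glycolytic genes were lower. Of 20 measured members 17 had negative log2 differences (median -0.36, -0.39 against control 1 and -0.31 against control 2). Of the 20, 4 were separated lower and 0 higher, beside 2.31% and 1.77% of all genes. Pfkp, the platelet form of phosphofructokinase that commits sugar to glycolysis, was at 169 and 149 CPM against 374 and 387 (log2 difference -1.26 ± 0.14, limma adjusted p = 0.0819). The isoforms Pfkl (-0.58) and Pfkm (0.63) differed in sign. The aldolases Aldoa (495 and 462 CPM against 801 and 868) and Aldoc (6.39 and 5.19 against 12.7 and 14.9) and Pgk1, phosphoglycerate kinase, at 415 and 381 against 699 and 849, were the other 3. Tpi1 (-0.91) and Eno2 (-0.79) were not separated, Gapdh had -0.11, and the glucose transporter Slc2a1 had 0.36.

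Of the hypoxia-inducible list a part was lower. Of 22 measured genes 14 were negative with a median of -0.11, and 4 were separated lower, beside 2.31% of all genes. Bnip3, a mitophagy receptor, was at 27.5 and 20.5 CPM against 52.4 and 63.7, and P4ha1, a collagen prolyl hydroxylase, at 27.1 and 22.9 against 42.3 and 49.2. Ak4, a mitochondrial adenylate kinase, was at 52.7 and 50.6 against 89.5 and 97.1. Ndufa4l2 had few reads, at 0.158 and 0.977 against 3.31 and 2.00 CPM. Hif1a (0.01), Egln1 (0.02), Pdk1 (0.02), Bnip3l (-0.13) and Vegfa (-0.45) were not separated. The hypoxia response element has the core ACGTG, which also lies inside the E-box CACGTG. On both strands of the 250 bases before the start site, ACGTG was found in 13 of 18 matched hypoxia-inducible genes (72.2%) and 8 of 19 glycolytic genes (42.1%). The share was 25.3% of the matched genes of the table and 18.5% of all 27025 genes in the promoter set. The promoters of 3 separated genes are shown because they hold the core, in capitals on either strand, at 108 and 107 bases before the start site in Bnip3, 16 in P4ha1, and 150 and 131 in Pgk1.
Bnip3, chr7:138909507-138909756, strand -: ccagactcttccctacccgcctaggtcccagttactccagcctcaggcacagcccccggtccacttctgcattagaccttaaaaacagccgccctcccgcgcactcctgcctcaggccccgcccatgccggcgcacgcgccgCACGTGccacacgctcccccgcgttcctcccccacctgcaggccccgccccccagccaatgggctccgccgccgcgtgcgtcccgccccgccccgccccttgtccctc
P4ha1, chr10:59323046-59323295, strand +: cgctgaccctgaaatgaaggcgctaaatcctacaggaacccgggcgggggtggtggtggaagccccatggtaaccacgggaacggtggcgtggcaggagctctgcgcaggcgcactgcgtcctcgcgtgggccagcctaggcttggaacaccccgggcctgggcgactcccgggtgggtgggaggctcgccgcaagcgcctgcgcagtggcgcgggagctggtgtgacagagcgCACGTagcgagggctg
Pgk1, chrX:106186850-106187099, strand +: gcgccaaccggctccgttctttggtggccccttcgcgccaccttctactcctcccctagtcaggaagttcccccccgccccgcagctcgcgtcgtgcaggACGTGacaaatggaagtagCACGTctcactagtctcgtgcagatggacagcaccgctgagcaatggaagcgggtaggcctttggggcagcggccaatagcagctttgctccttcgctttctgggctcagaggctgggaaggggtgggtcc
The 2 matches in Bnip3 are the 2 strands of 1 CACGTG. A match is a run of letters and shows no binding. The hypoxia-inducible list was drawn from known targets, so its share of the core describes the list and says nothing of the knockdown. Separated and other members were not compared for the core.

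ATF4 targets, genes of amino acid supply switched on in the integrated stress response, were lower in 19 of 27 cases (median -0.34 against control 1 and -0.33 against control 2). Of the 27, 4 were separated lower and 0 higher, beside 2.31% and 1.77% of all genes. Asns, asparagine synthetase, was at 212 and 190 CPM against 367 and 521. Cth, which makes cysteine, was at 35.0 and 34.3 against 61.7 and 94.3. Pck2, mitochondrial phosphoenolpyruvate carboxykinase, was at 24.6 and 26.4 against 45.5 and 40.8. The 4th was Aldh1l2, a mitochondrial folate enzyme, at 2.45 and 1.88 against 5.82 and 5.88. Stress markers of the same pathway had other values, with Ddit3 (CHOP) at 0.18, Trib3 at 0.02 and Chac1 at 0.67 on the log2 scale.

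Lysosomal genes were negative in 27 of 34 cases (median -0.25). Both knockdown libraries were below both controls for 24 of the 34, beside 24.6% of all genes, but 1 was separated lower (Ctsh), a share near the 2.31% of all genes. The proteases Ctsb (46.7 and 39.8 CPM against 66.9 and 65.5) and Ctsa (23.99 and 24.7 against 32.3 and 38.5) were lower by less. Cholesterol synthesis genes were negative in 19 of 23 cases (median -0.22), and Msmo1, a sterol oxidase, was at 44.4 and 43.96 CPM against 66.1 and 83.4 without being separated. Interferon response genes were negative in 12 of 16 cases (median -0.25). Of the 16, 2 were separated lower and 0 higher, beside 2.31% and 1.77% of all genes. They were the RNA sensor Ddx58 (RIG-I) at 32.2 and 33.9 CPM against 52.99 and 73.3 and Oas1g at 1.26 and 0.827 against 2.63 and 2.88. Oas1g had few reads, 16 and 11 against 23 and 26. Irf1, which induces such genes, was higher at 33.2 and 33.2 against 16.1 and 22.5.

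Cell death regulators differed one by one and not as a group. Of 24 genes 12 were positive and 12 negative (median -0.02), and 3 were separated higher and 2 lower, beside 1.77% and 2.31% of all genes. The BH3-only genes Pmaip1 (Noxa) and Bcl2l11 (Bim) were separated higher, at 63.3 and 71.8 CPM against 25.8 and 27.4 and at 65.4 and 72.3 against 32.0 and 24.1. Casp8, the initiator caspase, was at 4.74 and 5.26 against 1.599 and 1.66. Bbc3 (Puma; 22.97 and 21.0 against 35.5 and 40.1) and Hrk (2.76 and 2.86 against 5.37 and 7.32), of the same BH3-only class, were separated lower. Pmaip1 and Bbc3 are both p53 targets. Of 29 such genes 1 was separated higher and 2 lower, beside the same 1.77% and 2.31% of all genes, with a median of -0.02.

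Small nucleolar and Cajal body RNAs, guides for modifying and cutting other RNAs, were mostly lower, though their sum overlapped between the groups. The list summed to 23880 and 19820 CPM in the knockdowns and 21670 and 32910 CPM in the controls. Of 82 measured members 62 were negative (median -0.32), and 6 were separated lower and 0 higher, beside 2.31% and 1.77% of all genes. Rnu3a, a copy of the U3 RNA needed to process the ribosomal precursor, was at 346 and 298 CPM against 1220 and 973 (log2 difference -1.76 ± 0.18, limma adjusted p = 0.0819). Snord118 (U8) was at 7.97 and 6.46 against 17.2 and 15.9, and Snora74a at 35.1 and 25.6 against 66.2 and 62.8. In every separated member knockdown 2 was below knockdown 1, and the list's median difference between the knockdowns was 0.28. These RNAs are short and structured, and U3 has near-identical copies, so their share depends on library preparation and on how reads were assigned.

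Several large groups depended on which control was used. Cytoplasmic ribosomal protein genes were negative in 84 of 86 cases, but their median was -0.05 against control 1 and -0.41 against control 2, and 0 were separated. Nuclear genes of oxidative phosphorylation had 0.04 and -0.41, replication-dependent histones 0.27 and -0.48, and mitochondrially encoded RNAs -0.23 and 0.40. Each of the latter lists thus changed direction with the control. Translation initiation factors (0.03 and -0.16, 62 genes), the CCR4-NOT and decapping genes (-0.01 and 0.31, 32 genes), ER chaperones (0.01 and -0.28, 19 genes) and cell cycle genes of G1/S (0.06 and -0.14) and G2/M (0.03 and -0.16) did so as well, and 0 of their members were separated. H3f3b, a histone H3.3 gene, was at 504 and 467 CPM against 525 and 724, where control 1 was close to the knockdowns.

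**Figure D4:**
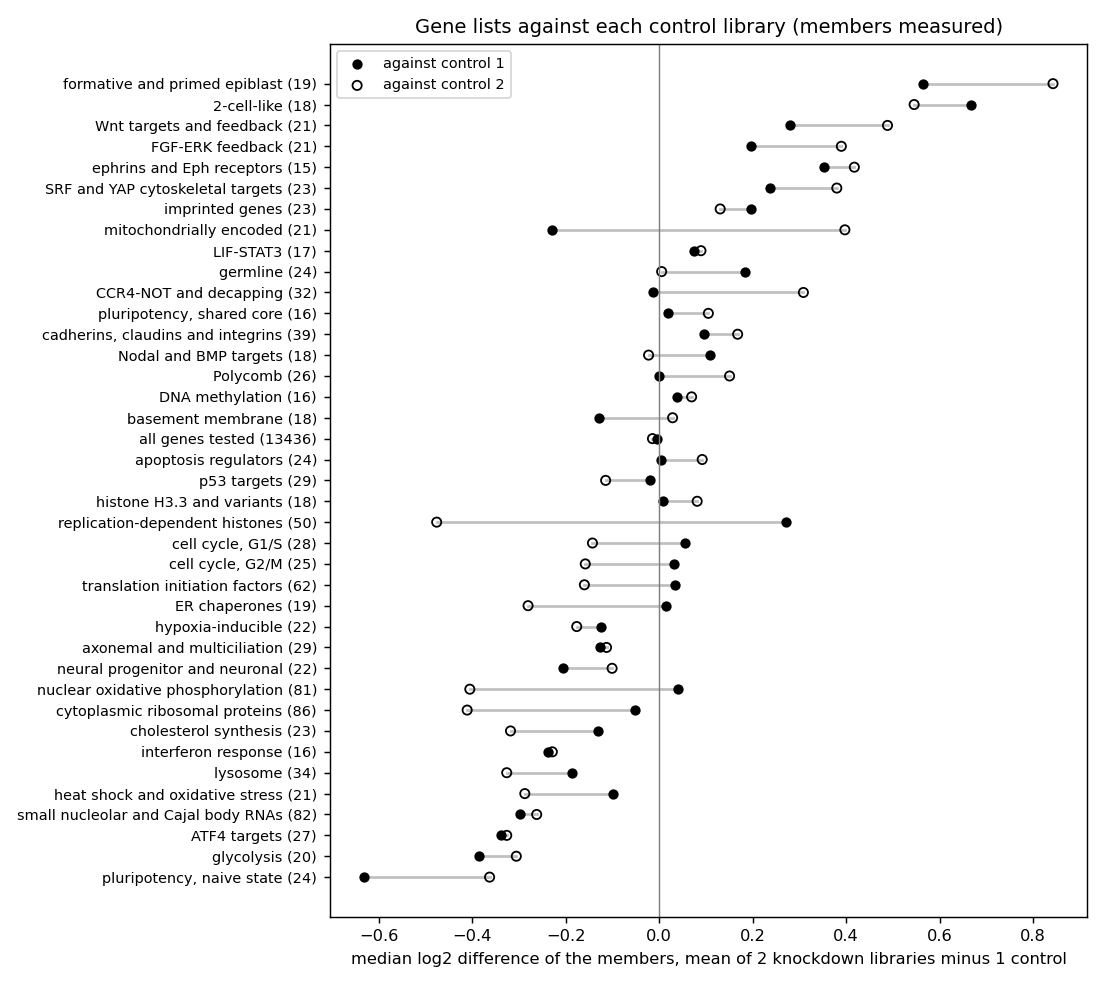
Median log2 difference (CPM + 1) of each gene list drawn and of all genes tested, with the number of measured members in parentheses. It is the mean of the 2 knockdown libraries minus control 1 (filled) or control 2 (open). The Y-linked, trophoblast, mesoderm and endoderm, long noncoding RNA, stem cell marker and fibroblast marker lists are not drawn. The formative and primed list is at 0.56 and 0.84 and the naive list at -0.63 and -0.36, whereas replication-dependent histones lie on both sides of 0 at 0.27 and -0.48.

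The footprint libraries of the study measure the same conditions with other libraries, although no source used here says whether a footprint library shares its culture with a total RNA library. Among 12818 genes of the footprint table non-overlapping groups made up 22.4% in each direction, and 1.86% were separated higher and 1.78% lower. Of the 238 genes separated higher in total RNA, 215 had footprint values, and in 192 of these both footprint knockdown libraries were above both controls. Of the 311 separated lower, 293 had footprint values and 231 were below both controls. The opposite order was found for 1 and 2 genes, and 0 were separated the other way. The footprint medians of these genes were 0.86 and -0.79 on the log2 scale. Of the 15 genes with the widest upward gap all 15 kept their order in footprints, and of the 15 downward 13 did. The exceptions were Rnu3a, which is not translated (468 and 296 footprint CPM against 412 and 358), and Arl14epl (4.84 and 2.09 against 4.78 and 5.65). Footprints of Eif4a2 were at 311 and 154 CPM against 395 and 409, lower in knockdown 2 than in knockdown 1.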

How the data were processed

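The authors deposited 1 table of total RNA for 13436 genes. Its library columns hold a normalized signal on the CPM scale, which per the file headers and values is reads per gene divided by an effective library size (columns sum to between 964909 and 1052295). All values were whole multiples of 1 read within 0.01 read (100%). Per the submitters' processing notes the build was mm9 and the tools, listed without roles, were edgeR 3.26.8, HTSeq 0.11.2, TopHat2 2.1.1 and Bowtie 1.2.3. The table's own fold changes and p-values, deposited by the authors as log2, score and p-value columns, were not used. The footprint table, a signal of the same kind deposited by the authors, was used only for values side by side.

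Differences were tested with limma 3.58.1 in R 4.3.3 on log2(value + 1), which understates changes of low genes, with Benjamini-Hochberg adjustment at 0.05 over all 13436 genes. edgeR 4.0.16 and DESeq2 1.42.0 were run on whole reads recovered from the deposited values. edgeR's filterByExpr at a minimum count of 10, applied ahead of the main limma test too, removed no gene. The script was tested on simulated data. Replicates may be technical in part, and p-values measure the spread between these libraries. Counting error was not compared with that spread. Strand use in counting was not stated, so overlapping and antisense genes cannot be told apart.

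Named genes were the targeted gene and 5 fixed others, the 15 widest gaps in each direction with at least 5 CPM in the higher group, the 4 members of each of 44 lists with the smallest p, and 5 genes in each direction between the controls. Other members are named with their log2 difference only or were chosen after their values were seen, separated members and motif promoters included. The members and lists were chosen with earlier results of these data known. Promoters are RefSeq's for GRCm38.p6 (250 bases before each start), matched by symbol, as were transcript classes for 13013 genes. No mm9 genome was used. Some list members are not reported here.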

Additional observations from a re-analysis of the deposited data

How the results depend on the processing

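limma called 0 genes with either other pseudocount, among genes with a mean of at least 10 CPM and with either other scaling. Dropping the filter repeated the main fit, because the filter had removed no gene. limma-voom and edgeR's quasi-likelihood test called 0 too, whereas edgeR's likelihood ratio test called 824 and DESeq2 272. Leaving out 1 library gave 34 to 6191 calls. Replicate numbers are given in the labels, but same-numbered libraries did not deviate together (r = -0.28 over 9013 genes). With the number as a replicate block 636 genes were called and with the crossed replicate block, added after seeing the data, 924. The cause of these differences was not tested.

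Separated genes numbered 238 higher, 358 with a pseudocount of 0.1, 83 with a pseudocount of 5, 89 among genes with a mean of at least 10 CPM, 313 to 1293 with 1 library left out, 3134 with no minimum gap and 50 at a gap of 2-fold. For genes lower, 311 became 133 with a pseudocount of 5, 160 at a mean of at least 10 CPM, 430 to 843 with 1 library left out, 3306 with no minimum gap and 58 at 2-fold. A block gives no value for this measure. Eif4a2 ranged from -0.69 to -0.30 with 1 library left out.

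Of 208 genes tried 14 changed sign under some alternative, none of them among the 30 widest gaps. With 1 library left out, the log2 difference ranged from -3.46 to 0.84 in Gm12505, -3.51 to 0.093 in Wdr95, -1.30 to 0.33 in Lepr, -1.12 to 0.47 in Rpl37rt, -0.90 to 0.55 in Gm9843, -0.51 to 0.14 in Ddx3y and -0.18 to 0.46 in Usp9y. It ranged from -0.43 to 1.68 in Zmiz1, -0.59 to 1.64 in Zfhx2, -0.45 to 1.88 in Kdm6b, -1.13 to 2.80 in mt-Rnr1, -0.56 to 2.29 in mt-Rnr2, -0.05 to 1.53 in mt-Cytb and -0.11 to 1.69 in mt-Nd2. The sign turned without control 2 in each, except Usp9y, where it turned without control 1. mt-Rnr1 was at -0.16 with either edgeR test and -0.15 with DESeq2. Of the list medians, those of the naive, formative and primed, 2-cell-like, Wnt, SRF and YAP, glycolysis, hypoxia-inducible, ATF4, lysosome and small nucleolar RNA lists kept their sign under every alternative run, whereas oxidative phosphorylation (0.04), replication-dependent histones (0.27) and mitochondrially encoded RNAs (-0.23) turned without control 2.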

Other observations

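Meg3, an imprinted long noncoding RNA of the Dlk1-Dio3 region, was at 398 and 383 CPM in the knockdowns and 234 and 99.7 CPM in the controls (log2 difference 1.35 ± 0.38, limma adjusted p = 0.201), with the controls more than 2-fold apart. The microRNA genes Mir433 and Mir1188 of the same region, chosen after their values were seen, had 22 and 24 reads against 5 and 3, and 20 and 14 reads against 3 and 2. They were the 2 separated genes among 25 microRNA genes measured, beside 1.77% of all genes separated higher. Other imprinted genes were mixed, with 15 of 23 positive (median 0.19), Ndn at 15.2 and 16.8 CPM against 10.4 and 10.3 and Grb10 at 129 and 122 against 201 and 171.

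By transcript class, 223 of 12403 protein-coding genes were separated higher and 285 lower, 5 and 4 of 249 long noncoding RNAs, 0 and 6 of 111 small nucleolar RNAs, 0 and 2 of 30 small nuclear RNAs and 0 and 4 of 107 pseudogenes. The shares over all genes were 1.77% higher and 2.31% lower, here and for the germline list of 24 measured genes. Germline genes included 3 separated higher, the tudor proteins Tdrd1 (13.6 and 14.1 CPM against 4.80 and 4.44) and Tdrd5 (10.1 and 11.4 against 5.37 and 4.77) and the synaptonemal protein Sycp1 (3.71 and 4.13 against 1.83 and 2.00). The meiotic genes Smc1b (6.55 and 8.94 against 17.2 and 18.1) and Hormad1 (4.58 and 5.11 against 8.57 and 12.6) were separated lower.

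Among genes higher in control 1 than in control 2 the widest ratios were those of mt-Rnr1 and mt-Rnr2, the mitochondrial ribosomal RNAs. The first was at 1886 CPM in control 1 and 124 CPM in control 2, with the knockdowns at 639 and 1168 between them. Kdm6b (87.8 and 16.7 CPM) and Zfhx2 (64.0 and 12.9) were also higher in control 1, and Gm12505 (2.06 and 59.0) and Wdr95 (4.34 and 64.0) were higher in control 2. In Kdm6b the knockdowns were at 58.9 and 69.8 CPM, between the controls, and in Wdr95 they were at 5.05 and 4.36 CPM, beside control 1.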
